A study of Mus musculus with 10 samples.

Results

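The genes described here build the compact mitotic chromosome: the DNA topoisomerases Top2a and Top2b and the condensin subunits Smc2, Smc4, Ncapd2, Ncapg, Ncaph, Ncapd3, Ncapg2 and Ncaph2. They were chosen by gene symbol, as probe sets that the platform's annotation gives exactly 1 of these symbols. Of the 10 genes, 9 had such a probe set, 1 each, among 22180 named genes, and all 9 lay above the filter on dim genes that left 16635 genes to be tested. Ncapg had only a probe set that also carries another gene's symbol, so no value is given for it. Another 2 probe sets carry the symbol of Top2a together with a second gene and were not used.

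RNA came from the respiratory epithelium of the nose, cut by laser capture from paraffin sections of formalin-fixed mouse embryos at E16.5, and was hybridised to arrays, 1 per embryo. The wild-type (WT) group held 4 female embryos and 1 male (WT 3), and the other group 5 triple knockout (TKO) embryos, 2 female (TKO 1 and TKO 3) and 3 male, whose genotype is miR-34a-/-, miR-34b/c-/- and miR-449a/b/c-/-. The labels name no Cre driver, treatment, strain or litter. The p-values set the difference between genotypes against the spread between these 10 arrays and treat the embryos as independent. Since nothing says how the embryos were related, that may not hold.

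Topoisomerase II passes one DNA duplex through a break in another and so untangles sister chromatids; Top2a is the form of dividing cells, while Top2b is made in dividing and resting cells alike. Condensins are rings that extrude DNA loops. Both kinds share the ATPase arms Smc2 and Smc4: condensin I adds Ncapd2, Ncapg and Ncaph and reaches chromosomes once the nuclear envelope has broken down, and condensin II adds Ncapd3, Ncapg2 and Ncaph2 and is nuclear throughout the cycle. In the airway lining, cells divide before they become multiciliated, and multiciliated cells reuse parts of the mitotic programme without dividing.

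The microRNAs that the TKO embryos lack are shown because their common seed is what joins the 3 loci in one experiment. RefSeq (GRCm38.p6) mature sequences were matched for 4 of them, miR-34a, miR-34b, miR-449a and miR-449c. Capitals mark the seed, bases 2 to 8, which was the same in all 4.
mmu-miR-34a-5p: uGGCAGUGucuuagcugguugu
mmu-miR-34b-5p: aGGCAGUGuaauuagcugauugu
mmu-miR-449c-5p: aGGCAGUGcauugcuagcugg
mmu-miR-449a-5p: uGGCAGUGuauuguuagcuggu

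The stretches before the start of Top2a and Top2b and of Ncaph and Ncaph2 are shown because the results turn on these paralogous pairs. Each is the 250 bases upstream of the RefSeq start (GRCm38.p6), and capitals mark CCAAT (or ATTGG on the other strand) and the cell-cycle homology letters TTTGAA or TTCGAA (or TTCAAA on the other strand). Matches of the motifs did not overlap one another.
Top2a (chr11:99024190-99024439, - strand): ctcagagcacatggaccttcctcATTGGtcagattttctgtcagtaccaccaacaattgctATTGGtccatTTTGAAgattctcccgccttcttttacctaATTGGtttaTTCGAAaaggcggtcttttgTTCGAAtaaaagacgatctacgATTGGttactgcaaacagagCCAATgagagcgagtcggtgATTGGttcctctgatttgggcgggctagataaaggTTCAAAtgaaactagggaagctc
Top2b (chr14:16364956-16365205, + strand): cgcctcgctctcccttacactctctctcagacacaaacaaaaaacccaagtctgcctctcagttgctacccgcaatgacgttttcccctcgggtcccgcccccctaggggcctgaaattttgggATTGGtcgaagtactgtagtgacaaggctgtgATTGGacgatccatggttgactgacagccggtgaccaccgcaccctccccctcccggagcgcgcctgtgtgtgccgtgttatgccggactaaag
Ncaph (chr2:127133955-127134204, - strand): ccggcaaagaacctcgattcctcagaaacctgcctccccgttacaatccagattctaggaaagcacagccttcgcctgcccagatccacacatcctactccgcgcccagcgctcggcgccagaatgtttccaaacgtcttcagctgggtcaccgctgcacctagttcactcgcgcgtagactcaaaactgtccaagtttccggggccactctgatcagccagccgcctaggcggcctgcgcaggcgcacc
Ncaph2 (chr15:89355469-89355718, + strand): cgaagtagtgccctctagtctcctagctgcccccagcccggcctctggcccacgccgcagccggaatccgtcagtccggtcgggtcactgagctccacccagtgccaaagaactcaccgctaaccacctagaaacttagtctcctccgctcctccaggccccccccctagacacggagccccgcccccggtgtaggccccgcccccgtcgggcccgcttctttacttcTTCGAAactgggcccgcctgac
The Top2a stretch held 6 CCAAT letters and 4 cell-cycle homology letters, the nearest of the latter beginning 23 bases before the start. At least 6 CCAAT were found in 0.0578% of 32851 RefSeq stretches of this length, and at least 4 cell-cycle homology matches in 0.0183%. Top2b held 2 CCAAT, a number reached in 10.1% of all stretches, and no cell-cycle homology match. Ncaph held neither motif, and Ncaph2 held 1 cell-cycle homology match and no CCAAT. Among the other members, Smc2 and Ncapg held 1 match of each, Ncapd2 held 3 CCAAT and 1 cell-cycle homology match, Ncapg2 held 1 cell-cycle homology match, and of the 2 Ncapd3 starts 1 held a single cell-cycle homology match. No stretch was read for Smc4. Any CCAAT was present in 33.8% of all stretches and any cell-cycle homology match in 17.1%. A match of letters is a description and does not show that a factor binds there.

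In the TKO epithelium Top2a, the condensin I kleisin Ncaph and the shared ATPase Smc2 were higher than in WT, and no member passed the test as lower. Of the 9 members tested, 3 passed an adjusted p of 0.05 as higher, where 4.39% of all tested genes did, and none passed as lower, where 1.12% of all genes did (limma with sex in the model, Benjamini-Hochberg over 16635 genes). The other 6 did not pass. At an unadjusted p below 0.05, 5 members were higher and 1 was lower, where 13.2% and 7.72% of all genes were. The median log2 change of the 9 was 0.26, against a median of -0.00052 over all tested genes, and 7 of the 9 changes were above 0. Without WT 3, the only male WT embryo, 1 member passed, Top2a, where 1.15% of all genes passed as higher, and the median of the 9 was 0.13. Among the females, 4 WT and 2 TKO, no member passed (4 were higher at an unadjusted p below 0.05, as 9.27% of all genes were), where 0.313% of all genes passed as higher, and the change of Top2a was 0.70 (limma adjusted p = 0.0624); that contrast is the same as the one without WT 3, with fewer arrays for the spread.

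**Figure D1:**
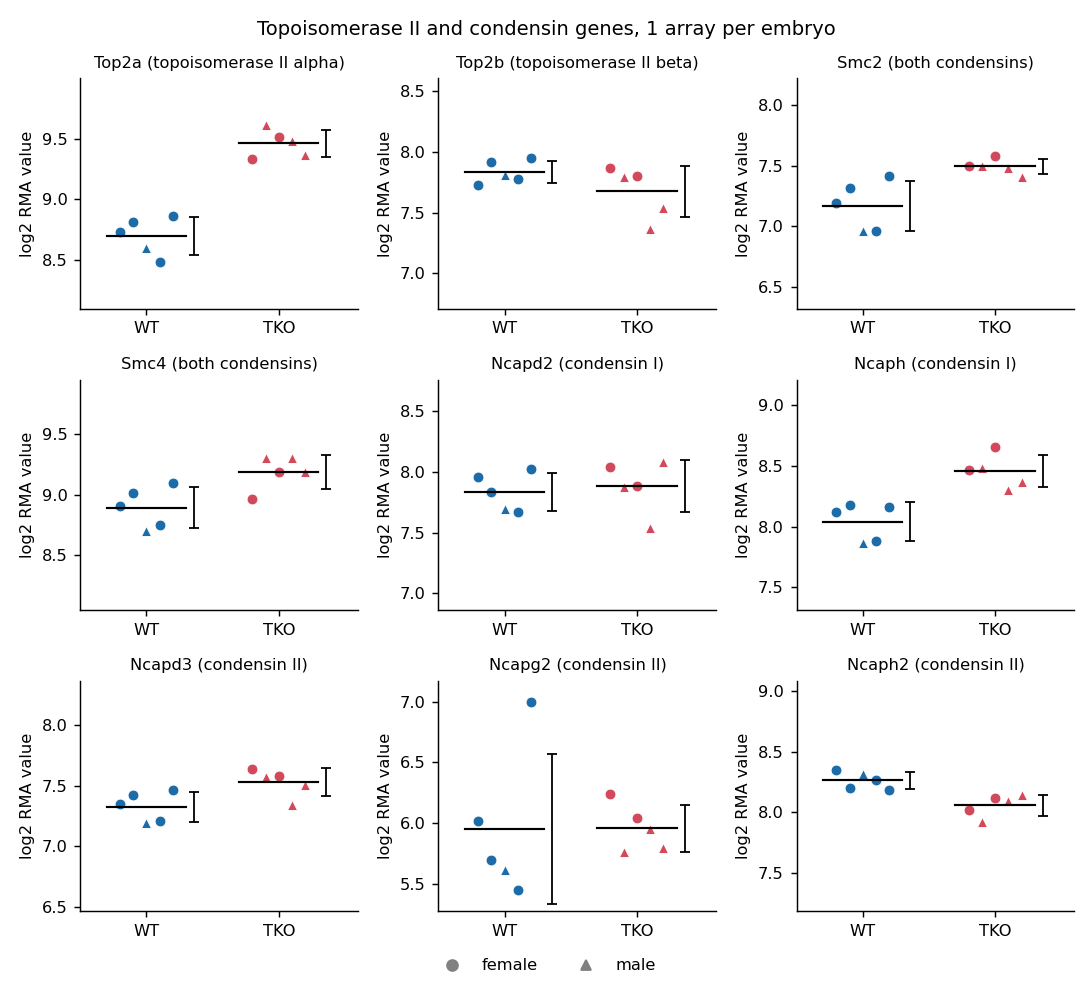
Log2 RMA value of each of the 9 measured members on every array, WT against TKO, with circles for female and triangles for male embryos. Horizontal lines are group means and vertical bars are 1 SD (n = 5 each); all panels span the same number of log2 units. The genotypes separate for Top2a and Ncaph (TKO higher) and for Ncaph2 (TKO lower), and Ncapg2 has 1 WT array far above the rest.

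Top2a had the largest change of the members. Its log2 values in WT 1 to WT 5 were 8.73, 8.81, 8.59, 8.48 and 8.86, and in TKO 1 to TKO 5 they were 9.33, 9.61, 9.51, 9.48 and 9.36. Every TKO array lay above every WT array, with a gap between WT 5 and TKO 1. The mean went from 8.70 ± 0.16 to 9.46 ± 0.11 (SD, n = 5 each). With sex in the model the log2 change was 0.77 (SE 0.093), a 1.71-fold increase (limma adjusted p = 0.00105), the 89th largest increase among the tested genes. In fits that left out 1 array each, Top2a was called in 10 of 10, with a change between 0.70 and 0.84.

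Top2b, the paralog that resting cells also make, did not pass. Its values were 7.73, 7.92, 7.81, 7.78 and 7.95 in WT 1 to WT 5 and 7.87, 7.79, 7.81, 7.37 and 7.54 in TKO 1 to TKO 5. The groups overlapped, and the 2 lowest values were those of the TKO males 4 and 5. The log2 change was -0.090 (95% confidence interval -0.30 to 0.12, limma adjusted p = 0.661).

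Of the ATPase arms, which serve both condensins, 1 passed. Smc2 was 7.19, 7.32, 6.96, 6.96 and 7.41 in WT 1 to WT 5 and 7.50, 7.50, 7.58, 7.49 and 7.41 in TKO 1 to TKO 5. The arrays all but separated: only WT 5 lay above a TKO array, TKO 5. The log2 change of Smc2 was 0.39 (SE 0.097), a 1.31-fold increase (limma adjusted p = 0.0406). The call of Smc2 was lost in 15 of 23 other settings, among them 8 of the 10 fits that left out 1 array, the exceptions being WT 2 and WT 5, for example without WT 3 (change 0.32, limma adjusted p = 0.241) and without sex in the model (0.33, limma adjusted p = 0.0584). Its change stayed above 0 in all 23 settings and was at least 0.26.

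Smc4, the partner arm, was 8.91, 9.02, 8.70, 8.75 and 9.10 in WT 1 to WT 5 and 8.96, 9.30, 9.19, 9.30 and 9.19 in TKO 1 to TKO 5. The single overlap came from TKO 1, which lay among the WT arrays. Its log2 change was 0.29 (95% confidence interval 0.062 to 0.51, limma adjusted p = 0.134). Without WT 3 the change of Smc4 was 0.13 (limma adjusted p = 0.606). The term for a different genotype effect in males and females had the smallest unadjusted p of the 9 members for Smc4 (0.0358), and its adjusted p over all genes was 0.994; this term rests on WT 3.

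Of the 2 condensin I subunits measured, the kleisin Ncaph, which closes the ring, rose. Ncaph was 8.12, 8.18, 7.87, 7.88 and 8.16 in WT 1 to WT 5 and 8.47, 8.49, 8.66, 8.31 and 8.37 in TKO 1 to TKO 5. No TKO array overlapped a WT array. Its mean went from 8.04 ± 0.16 to 8.46 ± 0.13 (SD, n = 5 each), and with sex in the model the log2 change was 0.49 (SE 0.083), a 1.41-fold increase (limma adjusted p = 0.00678). Without WT 3 the change of Ncaph was nearly as large, 0.48, but its SE rose to 0.11 and the call was lost (limma adjusted p = 0.0665).

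Ncapd2, a HEAT-repeat subunit of condensin I, overlapped between the genotypes. It was 7.96, 7.83, 7.70, 7.67 and 8.02 in WT 1 to WT 5 and 8.04, 7.87, 7.89, 7.54 and 8.08 in TKO 1 to TKO 5, so that both the lowest and the highest value were TKO arrays. The log2 change was 0.11 (95% confidence interval -0.14 to 0.36, limma adjusted p = 0.648).

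None of the 3 condensin II subunits passed. Ncapd3, the counterpart of Ncapd2, was 7.35, 7.42, 7.19, 7.21 and 7.47 in WT 1 to WT 5 and 7.64, 7.57, 7.58, 7.34 and 7.51 in TKO 1 to TKO 5. Apart from TKO 4, every TKO array lay above every WT array. Its log2 change was 0.26 (95% confidence interval 0.087 to 0.44, limma adjusted p = 0.0829), and with array quality weights it passed (0.27, limma adjusted p = 0.0491), a fit in which 4 members were higher, where 5.26% of all genes were.

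Ncapg2, the counterpart of Ncapg, was 6.02, 5.69, 5.61, 5.45 and 6.995 in WT 1 to WT 5 and 6.24, 5.76, 6.04, 5.95 and 5.80 in TKO 1 to TKO 5. WT 5 stood above all other arrays. The log2 change was 0.15 (95% confidence interval -0.40 to 0.70, limma adjusted p = 0.8), and without WT 5 it was 0.35 (SE 0.13, limma adjusted p = 0.127). WT 5 also had the highest score of the olfactory neuron markers, 1.52 against -0.81 to 0.75 on the other arrays, where a score is the mean over a list of the values centred per gene. The part of such cells in the Ncapg2 value was not tested.

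Ncaph2, the kleisin of condensin II, went the other way. It was 8.35, 8.20, 8.31, 8.27 and 8.18 in WT 1 to WT 5 and 8.02, 7.92, 8.12, 8.09 and 8.14 in TKO 1 to TKO 5. Every TKO array lay below every WT array, though the nearest arrays, TKO 5 and WT 5, were close. The log2 change was -0.21 (SE 0.072, 95% confidence interval -0.37 to -0.054), and it missed the threshold (limma adjusted p = 0.116). The exact two-sided permutation p over the arrays was 0.00794, the smallest that 5 against 5 can give. Top2a and Ncaph had the same p, as does any gene whose genotypes do not overlap. This test takes no account of sex. Over all tested genes, 2.07% had all TKO arrays below all WT arrays and 5.54% had all of them above, as Top2a and Ncaph did.

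**Figure D2:**
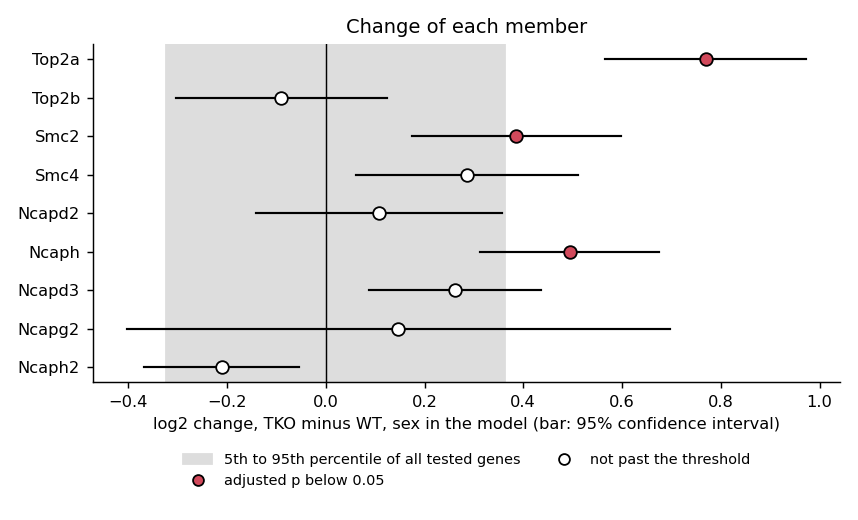
Log2 change of each member, TKO minus WT, from the limma fit with sex, with 95% confidence intervals as bars; filled points passed an adjusted p of 0.05. The grey band holds the 5th to 95th percentile of the changes of all 16635 tested genes, -0.32 to 0.36, and Top2a, Smc2 and Ncaph lie to the right of it.

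Paralogs were then set against each other within each array, so that a shift common to an array cancels. The question was whether the change of one paralog differed from that of the other, and 3 pairs could be formed. The log2 value of Top2a minus that of Top2b ranged from 0.70 to 1.0 in WT and from 1.46 to 2.11 in TKO. The ranges did not touch: the mean difference rose from 0.86 ± 0.12 to 1.78 ± 0.23 (SD, n = 5 each), by 0.92 (exact permutation p = 0.00794, adjusted over the 3 pairs 0.0119). The balance of Top2a to Top2b was thus higher in 5 of 5 TKO embryos than in any WT embryo. This permutation p is the smallest that 5 against 5 can give, and Top2a alone gave it too.

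For the kleisins, Ncaph minus Ncaph2 ranged from -0.45 to -0.016 in WT and from 0.22 to 0.57 in TKO. These ranges were also apart, and the mean rose from -0.22 ± 0.20 to 0.40 ± 0.17 (SD, n = 5 each), by 0.62 (exact permutation p = 0.00794, adjusted over the 3 pairs 0.0119). Ncaph alone was higher, and Ncaph2 alone lower, on every TKO array than on any WT array. Their difference thus had to separate, so this p restates those separations and is no further support. The signal of the condensin I kleisin therefore shifted against that of the condensin II kleisin on all TKO arrays. The HEAT-repeat subunits did not show such a shift: Ncapd2 minus Ncapd3 averaged 0.51 ± 0.077 over WT and 0.36 ± 0.14 over TKO arrays (SD, n = 5 each), a difference of -0.15 (exact permutation p = 0.0873). These differences come from the unadjusted means, so they are not exactly the differences of the changes with sex in the model. The permutation tests likewise take no account of sex, which was unbalanced between the genotypes. Top2a minus Top2b was 1.46 and 1.71 in TKO females and 1.82, 2.11 and 1.82 in TKO males. In WT 3, the WT male, it was 0.79. The sign of a paralog difference within a group carries no meaning because probe sets differ in brightness.

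**Figure D3:**
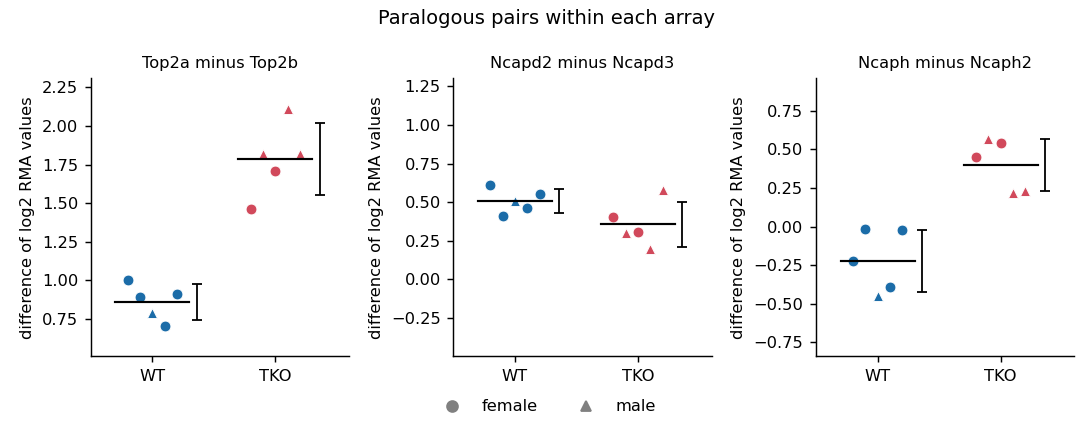
Log2 value of one paralog minus that of the other on each array, for the 3 pairs with both members measured; circles are female and triangles male embryos, lines are means and bars 1 SD (n = 5 each). WT and TKO do not overlap for Top2a minus Top2b or for Ncaph minus Ncaph2, and overlap for Ncapd2 minus Ncapd3.

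Within a genotype the arrays stood in a partly common order. WT 5 was the highest WT array for 7 of the 9 members, and WT 3 and WT 4 were the lowest for 3 and 4 of them. Among the TKO arrays, TKO 4 was the lowest for 4 members, and no array was the highest for more than 3. After each value was centred on the mean of its own genotype, Smc4 (Pearson r = 0.87), Smc2 (0.83) and Ncaph (0.70) followed Top2a most closely over the 10 arrays, while Ncapd2 (0.18) and Top2b (0.26) followed it little and Ncaph2 ran opposite (-0.50). Among 16626 other genes the 5 most like Top2a by this measure were Lnx1 (0.97), Hnrnpdl (0.96), Jrkl (0.96), Slc30a5 (0.96) and Med6 (0.94), and none of these 5 passed between the genotypes. Over so few arrays, which share their normalization, these values are descriptions only.

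Genes that act with the members were read next, as lists chosen by function. Of 22 genes that recruit or regulate condensin or act on mitotic chromatin, 3 rose, none fell and 19 did not pass. Over all tested genes 4.39% rose. The median log2 change of the 22 was 0.25, with 21 of 22 changes above 0. Ppp2r5a, a regulatory subunit of the phosphatase PP2A, rose from 7.07 ± 0.11 to 7.80 ± 0.088 (1.61-fold, limma adjusted p = 0.00072). Haspin, a histone kinase of mitosis, rose from 5.31 ± 0.058 to 5.78 ± 0.083 (1.44-fold, limma adjusted p = 0.00312), and Cdk1, the mitotic kinase that phosphorylates condensin subunits, rose 1.31-fold (limma adjusted p = 0.0355). The count ran from 2 to 7 with 1 array left out, 7 being the fit without WT 5. In those fits 1.15% to 5.33% of all genes rose. Among females only it was 1 of 22, where 0.313% of all genes rose. It was also 1 of 22 with the covariate for non-epithelial markers described further on, where 0.523% of all genes rose.

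Cohesin, the ring that holds sister chromatids together until anaphase, is built on relatives of the condensin arms. Of 18 genes of cohesin and its regulators, 1 rose (5.56%, where 4.39% of all tested genes rose), none fell and 17 did not pass. The median was 0.12, with 14 of 18 changes above 0. At an unadjusted p below 0.05, 4 were higher, as 13.2% of all genes were. The gene that rose was Sgo2a, a shugoshin that shields cohesin at centromeres (6.69 ± 0.13 to 7.09 ± 0.088, 1.38-fold, limma adjusted p = 0.0062). Of 9 genes of the SMC5/6 complex and other SMC proteins, 1 rose (11.1%), none fell and 8 did not pass. Their median was 0.23, with 8 of 9 changes above 0. Nsmce4a, a subunit of SMC5/6, was the gene that rose (1.30-fold, limma adjusted p = 0.0107). None of 10 other topoisomerases and their partners passed in limma (1 was higher at an unadjusted p below 0.05), and the median was 0.10. Those with the smallest p were Top3a, a type I enzyme that works on crossed strands (0.27, limma adjusted p = 0.106), and Tdp1, which frees DNA ends from trapped topoisomerase I (0.16, limma adjusted p = 0.243).

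Top2a is read in many tissues as a marker of G2 and mitosis, so other genes of that phase are set beside it. Of 25 tested, 12 rose, none fell and 13 did not pass, and the median was 0.39, where 4.39% of all tested genes rose. By an unadjusted p below 0.05, 21 were higher and 1 was lower, where 13.2% and 7.72% of all genes were. The lower gene was Mybl2 (-0.38, limma adjusted p = 0.0631). In some other fits, such as that with array quality weights and that without WT 5, 1 gene of the list passed as lower. Cdca8, of the chromosomal passenger complex, rose 1.92-fold (limma adjusted p = 0.00023), the mitotic kinase gene Aurka rose 1.5-fold (limma adjusted p = 0.00105), Cenpf, of the outer kinetochore, rose 1.62-fold (limma adjusted p = 0.00146), and the cyclin gene Ccnb2 rose 1.37-fold (limma adjusted p = 0.00479). Top2a's log2 change of 0.77 lay within the range of this list, -0.38 to 0.94. Without WT 3, 4 of the 25 rose, where 1.15% of all genes did, and without TKO 3, 7 rose, where 1.48% did, with medians of 0.33 and 0.39. Among females only 1 of the 25 rose, where 0.313% of all genes did. With the non-epithelial covariate 2 rose, where 0.523% of all genes did. The medians of these fits were 0.33 and 0.29.

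DNA replication genes mark S phase. Of 31 tested, 1 rose (3.23%, where 4.39% of all tested genes rose), none fell and 30 did not pass. The gene that rose was Gins1, of the replicative helicase (1.73-fold, limma adjusted p = 0.0219). The median was 0.12, with 26 of 31 changes above 0. At an unadjusted p below 0.05, 6 were higher, as 13.2% of all genes were. The calls of Gins1 and Nsmce4a were lost without WT 3 or TKO 3, and that of Sgo2a without WT 3; without WT 3 none of the cohesin, SMC5/6 and replication lists held a call. The differences between lists were not tested.

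**Figure D4:**
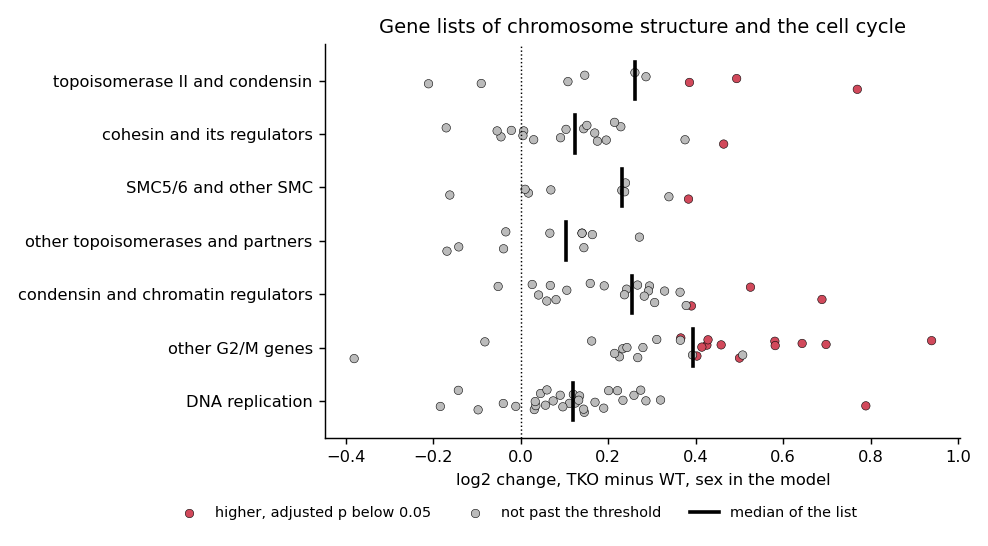
Log2 change, TKO minus WT, of each tested gene in 7 lists (horizontal axis), with 1 point per gene, red where the gene was higher at an adjusted p of 0.05; thick lines are list medians. The medians run from 0.10 for the other topoisomerases to 0.39 for the other G2/M genes, and the topoisomerase II and condensin genes have a median of 0.26.

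The captured cells expressed epithelial markers in both genotypes, Epcam among them at 8.55 in WT and 8.68 in TKO on the log2 scale. Of 15 such markers tested 1 rose and none fell, with a median log2 change of -0.051 and 6 changes above 0. At an unadjusted p below 0.05, 1 was higher and 2 were lower. Of the deleted microRNA genes, the Mir449c signal averaged 7.26 ± 0.28 over the WT and 3.67 ± 0.49 over the TKO arrays (SD, n = 5 each), and Mir449a fell by 1.81 on the log2 scale (limma adjusted p = 0.000442, with no filter). Mir449b still read 11.8 in TKO against 12.2 in WT (log2 change -0.33, limma adjusted p = 0.0318), and Mir34a, Mir34b and Mir34c did not pass (limma adjusted p = 0.633, 0.166 and 0.318). Whether each probe set lies inside its deleted stretch is not known here, and one outside it is no check of the genotype. Arrays correlated at 0.975 to 0.989 over all probe sets. Markers of other cells were present as well: of 9 mesenchyme genes tested 1 fell and of 8 skeletal muscle genes 2 fell, with median log2 changes of -0.48 and -0.65. No change of either list was above 0. At an unadjusted p below 0.05, 5 mesenchyme and 7 muscle genes were lower, as 7.72% of all genes were. The marker scores, which take no account of sex, overlapped. They ran from -0.56 to 0.55 in WT and -1.01 to 0.65 in TKO for mesenchyme. For muscle they ran from -0.40 to 0.85 in WT and -0.52 to 0.21 in TKO. Of 7 tested endothelial genes 1 fell, 2 were lower at an unadjusted p below 0.05, and the median was -0.32. None of 7 leukocyte, 5 cartilage, 5 glial and 9 olfactory neuron genes passed in limma (at an unadjusted p below 0.05, 1 glial gene was lower and no other). The leukocyte median was -0.26, and no endothelial or leukocyte change was above 0. Of the cartilage, glial and olfactory neuron changes, 3, 1 and 5 were above 0. The markers Tek, Cldn5, Ptprc, Cd3e, Twist2, Matn1 and Cnmd lay below the filter on dim genes. Of 7 reference genes listed for RNA quality 1 rose, and their score overlapped, from -0.15 to 0.092 in WT and -0.13 to 0.057 in TKO. In bulk RNA of this kind, fewer cells of a type and less RNA per cell cannot be told apart.

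When the mean score of the mesenchyme, muscle, endothelium, leukocyte, cartilage and glia lists entered the model, without the olfactory neuron list on which WT 5 stood apart, Top2a was higher by 0.63 (limma adjusted p = 0.0412), while Ncaph (0.36, limma adjusted p = 0.149) and Smc2 (0.26, limma adjusted p = 0.403) did not pass. In that fit 0.523% of all genes passed as higher. The score itself ranged from -0.34 to 0.33 in WT and from -0.45 to 0.17 in TKO, and its means differed by -0.17 (exact permutation p = 0.333). Unlike the fit, this difference and its p take no account of sex. In the WT females 1, 2, 4 and 5 the score was 0.22, -0.34, 0.22 and -0.0054. The TKO females 1 and 3 had -0.26 and -0.45. Among males, WT 3 had 0.33, and TKO 2, TKO 4 and TKO 5 had -0.050, 0.17 and 0.16. Of 14 multiciliated cell markers 4 rose, Gmnc, Mcidas, Ccno and Deup1, which act early in the making of multiciliated cells and their centrioles, and none fell. The median of that list was -0.016, with 6 of 14 changes above 0. At an unadjusted p below 0.05, 5 were higher and 2 were lower. The lowest changes were those of 2 genes of the built cilium, Hydin (-0.60, limma adjusted p = 0.0646) and Dnah9 (-0.51, limma adjusted p = 0.149). Tekt1 (0.069) and Rsph1 (-0.017) changed little. Of 8 basal cell markers 1 fell, Ngfr (limma adjusted p = 0.0418), and the median was -0.18, with 1 change above 0. That call was lost in every fit that left out 1 array except the one without WT 2. It was also lost without sex in the model and with the non-epithelial covariate. None of 8 secretory markers passed in limma, 4 were higher at an unadjusted p below 0.05, and the median was 0.18, with 7 changes above 0. The part of cell composition in the changes of the members was not tested beyond this covariate.

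**Figure D5:**
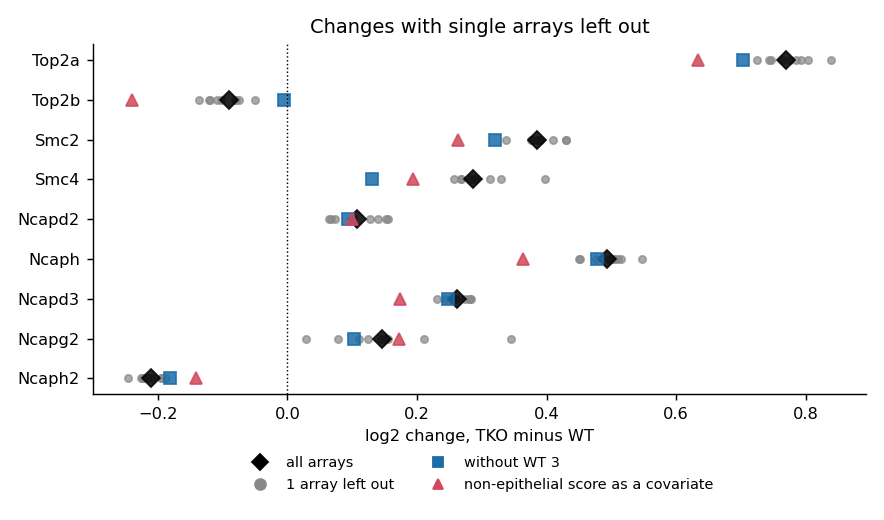
Log2 change of each member, TKO minus WT (horizontal axis), with all arrays (diamonds), with 1 array left out (grey circles), without WT 3 (squares) and with the mean score of the 6 lists of non-epithelial markers in the model (triangles). No member's change crosses 0 in any of these fits; Smc4 moves most when WT 3 is left out, from 0.29 to 0.13, and Ncapg2 when WT 5 is left out, from 0.15 to 0.35.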

How the data were processed

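Labels and the submitters' processing notes name RMA in the Affymetrix Expression Console as the authors' processing; no program version, summary level or array build is given in the sources used here. The log2 scale of the deposited values was read from their range, 1.5 to 13.7. No scanner file was used, so there is no detection call. The platform annotation gave exactly 1 symbol to 23521 of 41345 probe sets, several to 1814, and left 16010 unnamed; by Entrez ID, 23328 of those with 1 symbol matched RefSeq genes (GRCm38.p6). A gene was represented by its probe set with the highest mean, and means under the 25th percentile (log2 4.58) were filtered out.

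The test was limma 3.58.1 (R 4.3.3) with genotype and labelled sex, a variance trend with intensity, two-sided p and Benjamini-Hochberg adjustment over 16635 genes at a threshold of 0.05. Single values and paralog differences had exact two-sided permutation tests (252 assignments of the 10 arrays, fewer where an array was left out). Precision is limited by the 5 arrays of each genotype. The fit was tested on simulated data with noise drawn independently for each gene. It called 6.4% of genes given a log2 change of 0.25, 54.2% at 0.5 and 93.4% at 1. Of its calls 4.31% were false. A member with a change near 0.25 that did not pass is therefore not shown to be unchanged.

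The members and lists were chosen with earlier results of these data known. All members were named; from each other list of function up to 4 genes past the threshold per direction by smallest p, or the 2 with the smallest p; and the 5 genes most like Top2a. Mybl2 was named besides, as the G2/M gene that was lower at an unadjusted p below 0.05. Marker lists are given by counts and medians, and the single markers and microRNA genes named were picked as checks after their values were seen. Motifs were counted in the 250 bases before the RefSeq starts of 9 members; no stretch of Smc4 was used here. Alternatives dropped sex, added a replicate block, changed the filter, scaling, variance model, weights or probe set rule, kept females only, left out each array, or added a composition covariate. Same-numbered arrays did not deviate together for 4 of the 5 numbers, and did for number 4 (correlations of -0.13 to 0.38 over genes), so the numbers were not taken as pairs. The planned Ncapg and Ncapg2 pair could not be formed. Figures were drawn with matplotlib 3.10.9.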

Additional observations from a re-analysis of the deposited data

How the results depend on the processing

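No member changed direction in any of 23 settings, or 22 for Ncapg2, which the stricter filter removed. Leaving out 1 array each gave 1 to 3 members higher and 0 lower, a median of the members from 0.13 (without WT 3) to 0.33 (without WT 5), 191 to 886 genes higher and 19 to 398 lower, against 730 and 186 with all arrays. The paralog differences then ran from 0.84 to 1.01 for Top2a and Top2b and from 0.56 to 0.67 for Ncaph and Ncaph2. For both pairs the exact permutation p was 0.00794 each time, the smallest that those fits could give. Ranges already apart stay apart when an array is left out, so this p is no further support. For Ncapd2 and Ncapd3 the differences ran from -0.21 to -0.11 and passed without TKO 5 (exact permutation p = 0.0159). Females only gave 0 members, a median of 0.13, and 52 genes higher and 4 lower; fewer samples enter this fit. With the composition covariate 1 member passed, and 87 genes were higher and 14 lower. The cause of these losses was not tested. Centring arrays on their median gave 121 genes lower. Array quality weights gave 4 members higher, Ncapd3 being the one gained, and 875 genes higher in all.

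With the replicate number as a block, 2 members were higher, 771 genes were higher and 282 lower; Smc2 then missed the threshold (change 0.40, limma adjusted p = 0.055), and the other members' calls were the same. Top2a missed the threshold in 1 of 23 settings and Ncaph in 3.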
